A study of Mus musculus with 4 samples.

Results

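The genes described here are 9 transcripts that mark stages of mouse pluripotency. They were taken by symbol from a table of 22138 genes, and all 9 symbols were found. Of these, 5 are general pluripotency factors (Pou5f1, Sox2, Sall4, Utf1 and Lin28a) and 4 are formative or primed epiblast genes (Otx2, Pou3f1, Zic2 and Fgf5). They were measured in TT2 cells, embryonic stem cells labelled as female, of C57BL/6xCBA strain and preimplantation embryo stage. The cultures were feeder-free, in a medium that held serum and LIF, the cytokine that sustains self-renewal. Control siRNA (n = 2 libraries) was compared with siRNA against Hnrnpk (n = 2), which encodes the RNA- and DNA-binding protein hnRNP K, and the series title links that protein to silencing by SETDB1. Each group was transfected at 100 nM and after 24 hours once more at 50 nM, and RNA was taken about 72 hours after that second round by the treatment protocol, while the series' design text gives 72 hours after transfection without saying which. As far as the labels state, the groups differ only in the siRNA. The labels call the libraries biological replicates and do not say whether they came from separate cultures, so the p-values measure only the spread between these libraries. TT2 is a single line, and the labels give neither the sequence nor the number of the siRNAs, so effects of an siRNA other than on Hnrnpk cannot be told apart from those of Hnrnpk loss.

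Pluripotency is held by transcription factors that bind DNA together, with Pou5f1 (Oct4) and Sox2 as the central pair on a composite site. Embryonic stem cells in serum and LIF resemble the preimplantation epiblast. On leaving that naive state, cells keep Pou5f1, Sox2 and Lin28a and switch on Otx2, Pou3f1 (Oct6), Zic2 and Fgf5, which mark the formative state and the epiblast after implantation. The comparison asks where these marker genes stood when Hnrnpk was depleted.

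Values are RPKM, reads scaled to transcript length and library size, so levels can be set side by side between genes. The control libraries listed 17566 and 17657 genes above 0, with RPKM sums of 359659 and 362836. The depleted libraries listed 18019 and 18077 genes, with sums of 377825 and 390467. Relative to control replicate 1, the smallest steps between low values put depth at 0.99 for control replicate 2. For the depleted libraries they put it at 0.896 and 0.887, so these measures followed the groups. Hnrnpk itself stood at 236 and 226 RPKM after control siRNA and at 68.0 and 70.5 RPKM after Hnrnpk siRNA, so the target was lower in both libraries labelled as depleted. Changes are differences in log2(RPKM + 0.5), tested by limma across the 12486 genes whose mean over the 4 libraries reached 0.5 RPKM, and a gene is called at an adjusted p under 0.05. In bulk RNA, fewer cells that express a gene and less RNA per cell cannot be told apart.

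The general factors were abundant in all libraries, and each changed less than Pou3f1 and Zic2. The log2 change of Sox2 (-0.53) was larger in size than that of Otx2 (0.44). Sox2 fell, Utf1 and Lin28a fell by margins that depended on the processing, and Pou5f1 and Sall4 were not called. Of the formative genes, Zic2 and Pou3f1 fell more than 2-fold, Otx2 rose, and Fgf5 stayed under the 0.5 RPKM filter and was not tested. In total 8 of the 9 genes passed the filter, and 6 of these 8 were called, 1 higher and 5 lower, where 67.2% of all genes tested were called, 32.2% higher and 35.0% lower. The groups did not overlap for any of the 8, as for 84.7% of all genes tested (41.2% with all depleted libraries higher and 43.5% with all lower). The count called in either direction is thus near the share over all genes. By size, 2 of the 8 were called with a log2 change of at least 1, against 8.51% of all genes tested. For Pou3f1 the change was smaller than that with GC trends removed (-0.80) and with an added 1 RPKM (-0.98).

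**Figure D1:**
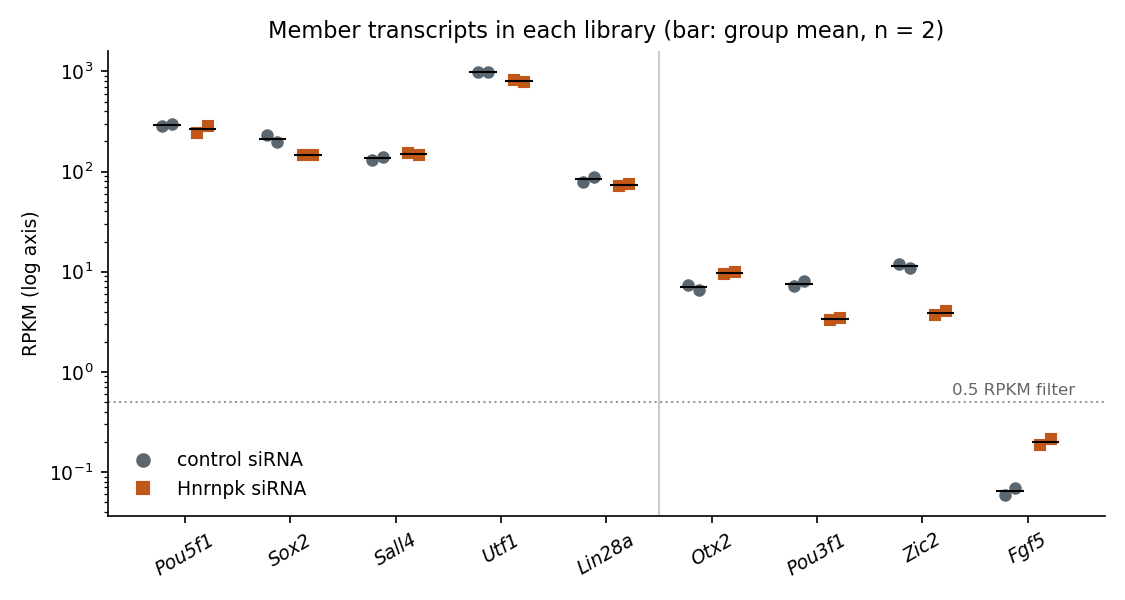
RPKM on a log axis of the 9 transcripts in each library, with control siRNA as circles, Hnrnpk siRNA as squares and a bar at each group mean (n = 2). Zic2 goes from 11.4 to 3.90 RPKM on average and Otx2 from 7.02 to 9.70, while Fgf5 lies under the dotted line of the filter in all 4 libraries.

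Pou5f1 (ENSMUSG00000024406, chromosome 17), the POU-domain factor whose level sets the pluripotent state, stood at 287 and 301 RPKM after control siRNA and at 245 and 286 RPKM after Hnrnpk siRNA. The higher Hnrnpk siRNA library lay just under the lower control library. Its mean was 294 ± 10.1 and 265 ± 28.8 RPKM (SD, n = 2 each), and it was not called, with a difference of -0.15 in log2 units and an SE of 0.0833 (limma adjusted p = 0.137). It was called without Hnrnpk siRNA replicate 2, at -0.26 (limma adjusted p = 0.0188), and under quantile normalization, at -0.23 (limma adjusted p = 0.0111). The difference was -0.039 without Hnrnpk siRNA replicate 1 (limma adjusted p = 0.711) and -0.021 with GC trends removed (limma adjusted p = 0.832). A stretch of 21.7% of its longest coding transcript is shared at 95% identity or more with Gm19553, so part of its signal is uncertain. Such shared stretches made up 8.6% for Pou3f1, 5.8% for Sall4 and 3.0% for Lin28a, and none were found for the other 5 genes.

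Sox2 (ENSMUSG00000074637, chromosome 3), the HMG-box partner of Pou5f1, stood at 231 and 195 RPKM after control siRNA and at 147 and 146 RPKM after Hnrnpk siRNA. Both depleted libraries lay below both controls, and the controls differed more from each other than the depleted libraries did. Sox2 fell by 0.53 on the log2 scale (SE 0.0833, limma adjusted p = 0.000337), from 213 ± 25.6 to 146 ± 0.916 RPKM (SD, n = 2 each). It remained called under each of the 14 alternatives. In RefSeq Sox2 lies inside the long noncoding RNA gene Sox2ot, and how the authors assigned reads of overlapping genes is not stated.

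The balance between these factors was read within each library, where scaling between libraries plays no part. The ratio of Pou5f1 to Sox2 was 1.24 and 1.54 after control siRNA and 1.67 and 1.96 after Hnrnpk siRNA. The ratio of Sall4 to Sox2 was 0.566 and 0.722 in the controls and 1.04 and 1.01 in the depleted libraries. Neither pair of groups overlapped. For Sall4 to Sox2 this follows from Sall4 being higher and Sox2 lower in both depleted libraries, so that ratio adds no separate test. With 2 libraries a group the exact two-sided permutation p is 0.333 for both ratios, the smallest this design allows.

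Sall4 (ENSMUSG00000027547, chromosome 2), a zinc finger factor that works with Pou5f1 and with repressor complexes, stood at 131 and 141 RPKM after control siRNA and at 153 and 148 RPKM after Hnrnpk siRNA. Both depleted libraries lay above both controls. The difference of 0.15 in log2 units, below the median absolute change of 0.32 over all genes tested, was not called (SE 0.0665, limma adjusted p = 0.0729). It was called with GC trends removed, at 0.21 (limma adjusted p = 0.0206), and without control siRNA replicate 2, at 0.20 (limma adjusted p = 0.04995). Its adjusted p ran from 0.0206 to 0.569 under the 14 alternatives.

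Utf1 (ENSMUSG00000047751, chromosome 7), a chromatin-bound factor of undifferentiated cells and a textbook target of the Pou5f1 and Sox2 pair, was the most abundant of the 9. It stood at 987 and 989 RPKM after control siRNA and at 820 and 792 RPKM after Hnrnpk siRNA. The controls were nearly equal and both depleted libraries lay below them. Utf1 fell by 0.29 on the log2 scale (SE 0.0748, limma adjusted p = 0.0062). Its transcript is 63.5% G and C, and with each library's trend on GC content removed the log2 change was -0.039 (limma adjusted p = 0.682), while quantile normalization gave -0.52 (limma adjusted p = 7.02e-05).

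Lin28a (ENSMUSG00000050966, chromosome 4), the RNA-binding protein that blocks maturation of let-7 microRNAs, stood at 78.4 and 89.1 RPKM after control siRNA and at 71.3 and 75.1 RPKM after Hnrnpk siRNA. The groups did not overlap, but the controls stood about as far from each other as the group means did. It was called lower by a narrow margin, at -0.19 in log2 units (SE 0.0746, limma adjusted p = 0.0445), and the call was lost under 7 of the 14 alternatives. Without control siRNA replicate 2 it was -0.099 (limma adjusted p = 0.294), and without control siRNA replicate 1 it was -0.28 (limma adjusted p = 0.00771).

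**Figure D2:**
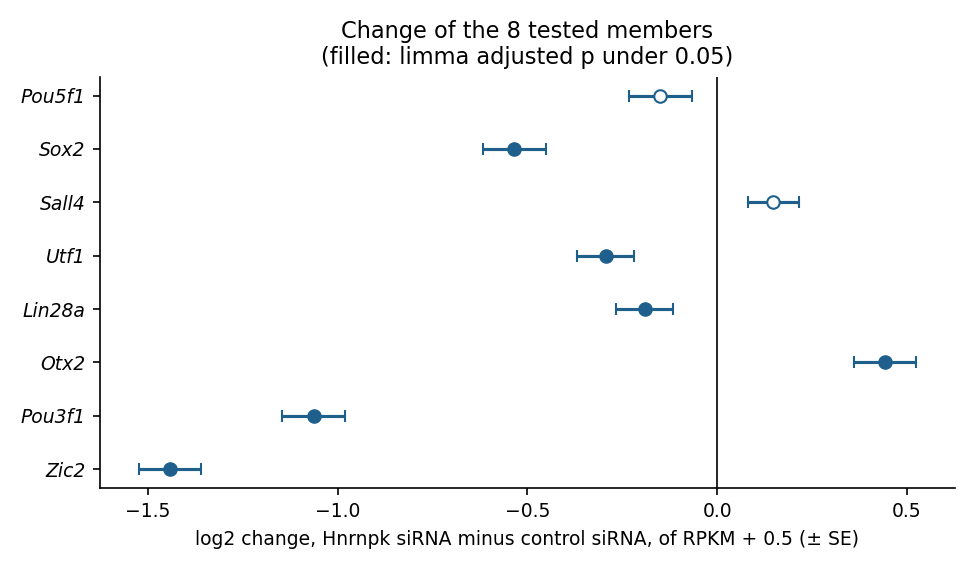
Log2 change of RPKM + 0.5, Hnrnpk siRNA minus control siRNA, for the 8 tested genes, with bars of 1 SE and filled points for an adjusted p under 0.05. Zic2 (-1.44) and Pou3f1 (-1.06) lie farthest from 0, Otx2 (0.44) is the called gene to the right of 0, and Pou5f1 and Sall4 are open.

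Sequences before the gene start were read from RefSeq (GRCm38.p6), which held 10 windows for 6 of the 9 genes: Pou5f1, Sox2, Utf1, Lin28a, Otx2 and Fgf5. They are shown because hnRNP K is known for binding C-rich strands, among them the CT element of the MYC promoter. The motif CCCTCCC, searched on both strands in the 250 bases before each start, was present in 4 of the 10 windows, each of a different gene, and 19.69% of all 32851 windows hold it. Capitals below mark each match on either strand, so GGGAGGG is the same motif on the other strand; overlapping matches run together.
Pou5f1 (chr17:35505782-35506031, plus strand, 62.0% G and C): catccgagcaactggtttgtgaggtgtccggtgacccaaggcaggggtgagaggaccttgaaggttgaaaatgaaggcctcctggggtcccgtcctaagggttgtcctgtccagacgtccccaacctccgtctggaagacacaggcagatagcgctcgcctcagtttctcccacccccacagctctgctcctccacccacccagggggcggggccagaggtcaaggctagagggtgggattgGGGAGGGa
Utf1 (chr7:139943606-139943855, plus strand, 61.6% G and C): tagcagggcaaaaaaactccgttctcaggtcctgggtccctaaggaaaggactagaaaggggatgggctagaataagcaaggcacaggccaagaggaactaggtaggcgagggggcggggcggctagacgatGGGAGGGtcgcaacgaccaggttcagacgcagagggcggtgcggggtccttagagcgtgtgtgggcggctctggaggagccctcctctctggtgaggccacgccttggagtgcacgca
Lin28a (chr4:134018817-134019066, minus strand, 61.2% G and C): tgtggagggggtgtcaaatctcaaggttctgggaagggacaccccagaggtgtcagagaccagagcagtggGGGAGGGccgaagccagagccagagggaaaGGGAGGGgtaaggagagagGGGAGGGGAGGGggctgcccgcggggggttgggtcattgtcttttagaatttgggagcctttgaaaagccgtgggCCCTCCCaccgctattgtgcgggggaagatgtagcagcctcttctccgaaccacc
Fgf5 (chr5:98253934-98254183, plus strand, 70.8% G and C): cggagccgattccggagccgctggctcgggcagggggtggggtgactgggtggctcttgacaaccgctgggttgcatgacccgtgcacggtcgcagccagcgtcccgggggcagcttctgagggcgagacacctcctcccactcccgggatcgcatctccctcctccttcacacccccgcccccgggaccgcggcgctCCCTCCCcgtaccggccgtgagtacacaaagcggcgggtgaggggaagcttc
Lin28a holds 5 matches and the others 1 each. The 4 genes with a match include a gene that was not called (Pou5f1), genes with lower values after Hnrnpk siRNA (Utf1 and Lin28a) and a gene under the filter (Fgf5). The windows of Sox2, which fell, and of Otx2, which rose, hold none. All windows had a median of 52.4% G and C, below these 4. The octamer ATGCAAAT that POU factors bind was in none of the 10 windows and in 1.6% of all; its first 7 bases, ATGCAAA, were in Sox2 alone among these genes and in 4.12% of all windows. The other motifs searched were CCCTCC and CTCCC, both contained in CCCTCCC (in 5 and 8 of the 10 windows, and in 35.24% and 65.12% of all windows), CCCCACC (Fgf5 and Otx2; 14.09%), GGGCGG (Fgf5, Pou5f1, Sox2 and Utf1; 32.74%), CATTGTT (Pou5f1; 3.29%) and ACAAAG (Fgf5 and Sox2; 16.46%). A match is a description of letters.

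Otx2 (ENSMUSG00000021848, chromosome 14), the homeobox factor that directs Pou5f1 to new enhancers as cells enter the formative state, stood at 7.43 and 6.60 RPKM after control siRNA and at 9.43 and 9.97 RPKM after Hnrnpk siRNA. Both depleted libraries were above both controls. Otx2 rose by 0.44 in log2 units (SE 0.0817, limma adjusted p = 0.000978), from 7.02 ± 0.586 to 9.70 ± 0.379 RPKM (SD, n = 2 each), and was called under all 14 alternatives. Otx2 is also expressed in primitive and visceral endoderm, and the summed level of 9 primitive endoderm markers was 21.8 and 20.99 RPKM in the controls and 63.1 and 65.0 RPKM in the depleted libraries; their part in the Otx2 value was not tested.

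Pou3f1 (ENSMUSG00000078236, chromosome 4), the POU factor of the epiblast and of neural progenitors, stood at 7.22 and 8.02 RPKM after control siRNA and at 3.32 and 3.44 RPKM after Hnrnpk siRNA. The depleted libraries were close together and lower than both controls by more than the controls differed. Pou3f1 fell by 1.06 on the log2 scale (SE 0.0839, limma adjusted p = 4.67e-06), with a control mean 2.25 times the depleted mean. Its transcript is 63.9% G and C, and with GC trends removed the log2 change was -0.80 (limma adjusted p = 7.25e-05). The table's identifier for it is not in GENCODE M21, so its transcript length and GC content were matched by symbol.

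Zic2 (ENSMUSG00000061524, chromosome 14), a zinc finger factor that occupies enhancers in stem cells and marks the epiblast and neural plate, stood at 12.0 and 10.9 RPKM after control siRNA and at 3.73 and 4.06 RPKM after Hnrnpk siRNA. Among the 8 tested genes it had the largest change, a fall of 1.44 on the log2 scale (SE 0.0826, limma adjusted p = 7.96e-07), with a control mean 2.94 times the depleted mean. Its neighbour on chromosome 14, Zic5, stood at 14.4 and 13.6 RPKM after control siRNA and at 4.95 and 4.62 RPKM after Hnrnpk siRNA, and fell by 1.46 on the log2 scale (SE 0.0760, limma adjusted p = 4.82e-07). The ratio of Zic5 to Zic2 was 1.20 and 1.25 in the controls and 1.33 and 1.14 in the depleted libraries, which overlap. Zic2 and Pou3f1 are also neural genes. All 3 tested neural ectoderm markers (of 10 named) were called lower, as were 35.0% of all genes tested. Their summed level was 104 and 117 RPKM in the controls and 85.2 and 95.3 RPKM in the depleted libraries, most of it Tubb3. The part of these markers in the Zic2 and Pou3f1 values was not tested.

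Fgf5 (ENSMUSG00000029337, chromosome 5), a secreted growth factor that is the classical marker of primed epiblast, was near the bottom of the scale. It stood at 0.0594 and 0.0689 RPKM after control siRNA and at 0.187 and 0.214 RPKM after Hnrnpk siRNA. Both depleted libraries were above both controls, with a mean ratio of 3.13, and all 4 values lay under the filter. With the filter off, limma gave 0.31 in log2 units (SE 0.0291, adjusted p = 0.00195 over 18814 genes), in a fit that also held genes with no spread between libraries, but the added 0.5 RPKM sets that size: it was 0.87 with an added 0.1 RPKM and 0.17 with an added 1 RPKM. At the smallest step between low values, these levels correspond to about 36.7, 42.2, 104 and 118 steps over its annotated exons. Whether a step is a whole read was not settled, so no counting interval is given.

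From highest to lowest, the control libraries had Utf1, Pou5f1, Sox2, Sall4, Lin28a, Zic2, Pou3f1, Otx2 and Fgf5, and the only neighbours whose libraries overlapped were Pou3f1 and Otx2. After Hnrnpk siRNA they had Utf1, Pou5f1, Sall4, Sox2, Lin28a, Otx2, Zic2, Pou3f1 and Fgf5, with no overlap between neighbours. By mean, Otx2 was the lowest of the 3 tested formative genes in the controls, where it overlapped Pou3f1, and the highest after Hnrnpk siRNA. Within each library the ratio of Otx2 to Zic2 was 0.621 and 0.604 in the controls and 2.53 and 2.45 in the depleted libraries. The ratio of Otx2 to Pou3f1 was 1.03 and 0.823 in the controls and 2.84 and 2.90 in the depleted libraries. Neither pair of groups overlapped, which follows from Otx2 being higher, and Zic2 and Pou3f1 lower, in both depleted libraries than in both controls. These ratios therefore add no separate test, and their exact two-sided permutation p of 0.333 is the smallest possible.

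The wider formative and primed list held 23 other genes of this stage, of which 21 were tested. Of these, 14 were called lower and 3 higher, against 35.0% and 32.2% of all genes tested, and the median log2 change was -0.40 beside -0.015 over all genes. This list, like the other lists, was chosen with earlier results of these data known, so setting it beside all genes tests nothing. Sox11, a neural and epiblast SOX factor, fell from 10.9 ± 0.0929 to 3.62 ± 0.190 RPKM (SD, n = 2 each), or by 1.46 on the log2 scale. The de novo DNA methyltransferase Dnmt3b had 87.6 ± 8.42 and then 39.3 ± 2.14 RPKM (SD, n = 2 each), a fall of 1.14 on the log2 scale. Its relative Dnmt3a had 16.9 ± 3.18 and 7.61 ± 0.0352 RPKM (SD, n = 2 each), a fall of 1.09. In the other direction Nodal, the ligand that sustains the epiblast, had 19.4 ± 0.234 and then 67.3 ± 3.73 RPKM (SD, n = 2 each), a rise of 1.77 in log2 units. Dkk1, a secreted Wnt inhibitor, had 0.0478 ± 0.0160 and then 1.15 ± 0.157 RPKM (SD, n = 2 each). Its rise of 1.59 in log2 units is set by the added 0.5 RPKM (3.08 with an added 0.1 and 1.04 with an added 1 RPKM). Dkk1 passed the filter only through the depleted libraries, which favoured a higher call. With a mean of at least 1 RPKM required, 2 genes of the list were called higher. Dusp6, a phosphatase induced by ERK signalling, had 27.0 ± 3.15 and 31.7 ± 1.99 RPKM (SD, n = 2 each), and its rise of 0.23 in log2 units (limma adjusted p = 0.0365) was lost under 5 alternatives, among them leaving out control siRNA replicate 1 (0.11, limma adjusted p = 0.236) or Hnrnpk siRNA replicate 1 (0.17, limma adjusted p = 0.192). Without control siRNA replicate 2 it was 0.35.

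Among 22 other general pluripotency genes, all tested, 10 were called higher, 4 lower and 8 were not called, with a median log2 change of 0.15. The 14 called are near the share of 67.2% over all genes tested. Under quantile normalization 7 were called lower. Nanog, the homeobox factor of naive cells, had 197 ± 9.49 and then 348 ± 8.13 RPKM (SD, n = 2 each), a rise of 0.82 in log2 units. Dppa2, Dnmt3l and Zfp296, genes of early embryos and stem cells, rose by log2 changes of 1.01, 0.97 and 0.69. Those that fell were Mycn, a MYC family factor, by 0.96, the adhesion molecule Epcam by 0.64, the transcriptional regulator Nacc1 by 0.37 (by 0.24 with GC trends removed) and the Nodal co-receptor Tdgf1 by 0.24 on the log2 scale. Tdgf1 was not called without Hnrnpk siRNA replicate 1 (-0.19, limma adjusted p = 0.062).

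Of the 16 naive genes, 7 were called higher and 5 lower, with a median log2 change of 0.087, and the 12 called are near the 67.2% over all genes tested. Tbx3 and Tcfcp2l1 (now Tfcp2l1), transcription factors of naive cells, rose by log2 changes of 1.97 and 1.44, and Nr0b1 and Prdm14 by 0.35 and 0.39. Gbx2, Dppa3, Stat3 and the threonine dehydrogenase Tdh fell by 1.03, 0.82, 0.34 and 0.33 on the log2 scale.

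**Figure D3:**
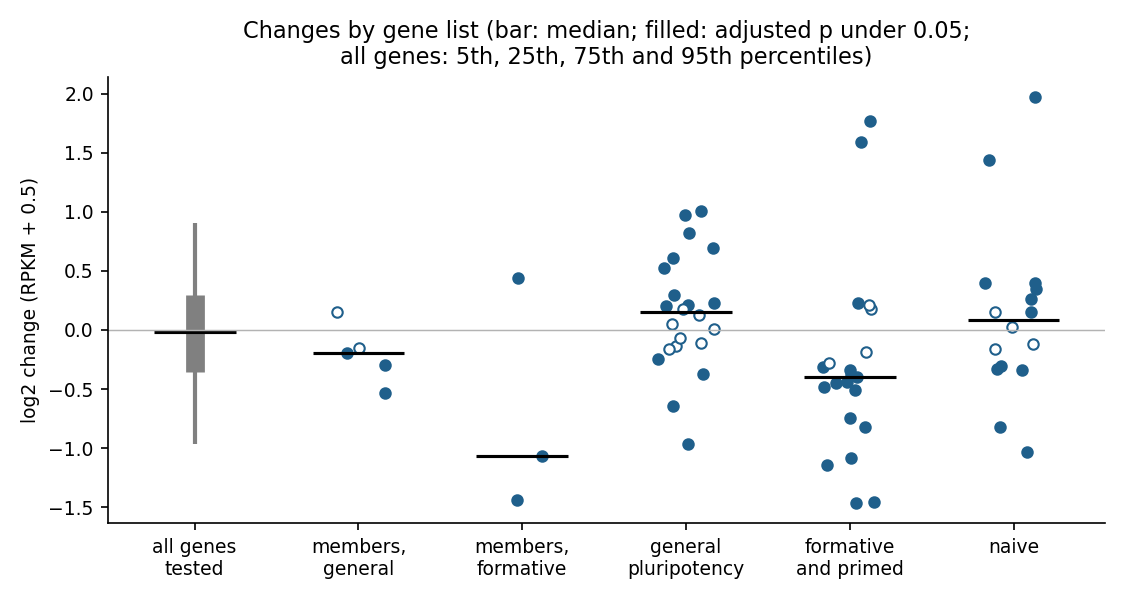
Log2 change (RPKM + 0.5) of each tested gene by list, with a bar at the median and filled points for an adjusted p under 0.05; the left column gives the 5th to 95th percentiles of all genes tested. The formative and primed list has its median at -0.40, with Nodal (1.77) and Dkk1 (1.59) at its top, and the general and naive lists have medians of 0.15 and 0.087.

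Textbook targets of Pou5f1 and Sox2 and genes of the Lin28 and let-7 axis were read from lists too. Of 6 textbook targets of Pou5f1 and Sox2, Nanog and Fbxo15 rose, Fgf4 fell, and 3 were not called, where 67.2% of all genes tested were called. Utf1, also a textbook target, is not among these 6 and was called lower. Fbxo15 had 143 ± 1.62 and then 206 ± 0.926 RPKM (SD, n = 2 each), and the growth factor gene Fgf4 had 56.1 ± 4.32 and then 45.3 ± 0.208 RPKM (SD, n = 2 each), differences of 0.52 and -0.30 in log2 units. Without control siRNA replicate 2, 2 of the 6 were called lower. Of 10 genes of the Lin28 and let-7 axis, 6 were called lower and 2 higher, against 35.0% and 32.2% of all genes tested. The median log2 change was -0.30 beside -0.015 over all genes tested. The paralog Lin28b had 4.27 ± 0.398 and then 2.82 ± 0.0935 RPKM (SD, n = 2 each), a fall of 0.52 on the log2 scale. Trim71, a ubiquitin ligase repressed by let-7, had 52.1 ± 0.151 and then 36.0 ± 2.77 RPKM (SD, n = 2 each), a fall of 0.53. The RNA-binding protein gene Igf2bp2 fell by 0.35 on the log2 scale. Hmga2, a chromatin protein whose transcript let-7 also represses, had 1.64 ± 0.0186 and then 3.63 ± 0.134 RPKM (SD, n = 2 each), a rise of 0.95 in log2 units. The uridyltransferase gene Zcchc6 rose by a log2 change of 0.31, not called without Hnrnpk siRNA replicate 1 (limma adjusted p = 0.0512), which left 1 gene of the list called higher.

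Of 26 paralogs of the 9 genes, 25 were in the table and 16 were tested, with 7 called lower and 4 higher, near the 35.0% and 32.2% over all genes tested. In the SALL family, Sall1 fell from 107 ± 2.76 to 64.9 ± 3.52 RPKM (log2 change -0.72) and Sall2 from 5.41 ± 0.427 to 3.65 ± 0.201 RPKM (log2 change -0.51), and Sall3 rose from 1.23 ± 0.0301 to 1.93 ± 0.0469 RPKM (log2 change 0.49; SD, n = 2 each). Among SOX genes, Sox15 and Sox21 rose by log2 changes of 0.49 and 0.65. Sox3, a close relative of Sox2, had 2.50 ± 0.271 and 2.13 ± 0.220 RPKM (SD, n = 2 each), not called (-0.19 in log2 units, limma adjusted p = 0.129). Without control siRNA replicate 2 it was called lower (-0.28, limma adjusted p = 0.0187), and its sign turned with GC trends removed (0.13). Of the POU genes, Pou2f3 fell by 1.19 and Pou2f2 by 0.49 on the log2 scale. Pou4f2 rose by 0.55 (0.86 with an added 0.1 RPKM), but averaged 0.437 RPKM in the controls and passed the filter only through the depleted libraries. Pou2f1, Pou4f1 and Pou6f1 were not called, at -0.14, 0.20 and 0.10. Leaving out 1 library moved these from -0.26 (without Hnrnpk siRNA replicate 1) to -0.017 (without Hnrnpk siRNA replicate 2), from 0.075 (without control siRNA replicate 2) to 0.32 (without control siRNA replicate 1) and from 0.031 to 0.17 (without the same control libraries). Pou4f1 was called higher without control siRNA replicate 1 (0.32, limma adjusted p = 0.00945) and under quantile normalization (0.31), and Pou2f1 lower with GC trends removed (-0.21).

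Markers of other cell types that the culture could hold moved with the groups. Of the tested markers, 6 of 7 for primitive endoderm and 6 of 6 for trophectoderm were called higher. So were 6 of 6 of the early cleavage (Zscan4) state and 4 of 6 for primitive streak and its derivatives. Of the last 6, 1, Mixl1, was called lower (-0.73 in log2 units). Over all genes tested, 32.2% were called higher and 35.0% lower. Eomes is in both the trophectoderm and streak lists, and Sox17 and Foxa2 are in both the primitive endoderm and streak lists. Counts and sums of these lists are therefore not independent. The 6 cleavage-state markers averaged 0.027 to 0.23 RPKM in the controls and passed the filter only through the depleted libraries. Pdgfra, Wnt3 and Gsc did likewise, at control means of 0.17, 0.29 and 0.47 RPKM. For all of these the filter favoured a higher call. Summed trophectoderm markers were at 37.4 and 41.7 RPKM in the controls and 86.2 and 89.9 RPKM in the depleted libraries. The cleavage-state markers were at 0.787 and 0.710 RPKM and then at 39.4 and 46.3 RPKM, and those of streak, mesoderm and definitive endoderm at 5.83 and 5.53 and then at 11.4 and 10.9 RPKM. Fibroblast markers were at 11.2 and 9.70 RPKM and then at 5.90 and 6.09 RPKM, with 2 of 4 tested called lower and 6 of 10 under 0.5 RPKM in both groups. No marker in these lists was at 0 in all libraries, and their part in the values of the 9 genes was not tested. The 5 general factors summed to 1714 and 1715 RPKM in the controls and to 1437 and 1446 RPKM in the depleted libraries, most of it Utf1. Cells that leave the naive state also keep Pou5f1, Sox2 and Lin28a, so this sum does not test the labelled cell type.

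**Figure D4:**
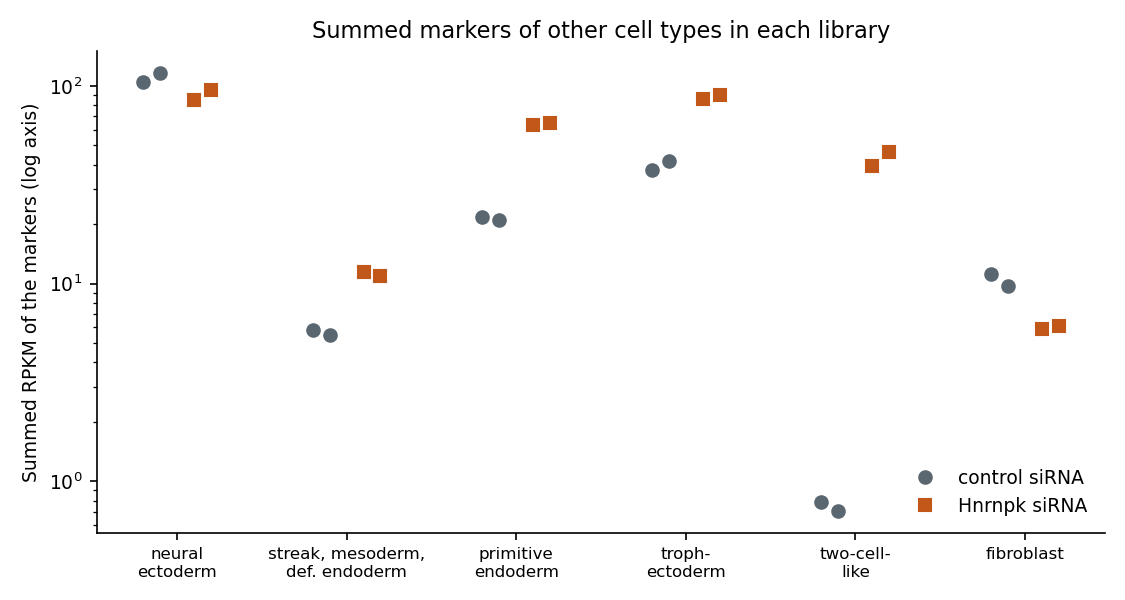
Summed RPKM on a log axis of the markers of 6 other cell types in each library, with control siRNA as circles and Hnrnpk siRNA as squares. Primitive endoderm markers lie at 20.99 to 21.8 RPKM in the controls and 63.1 to 65.0 after Hnrnpk siRNA, and neural ectoderm and fibroblast markers are lower after Hnrnpk siRNA.

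**Figure D5:**
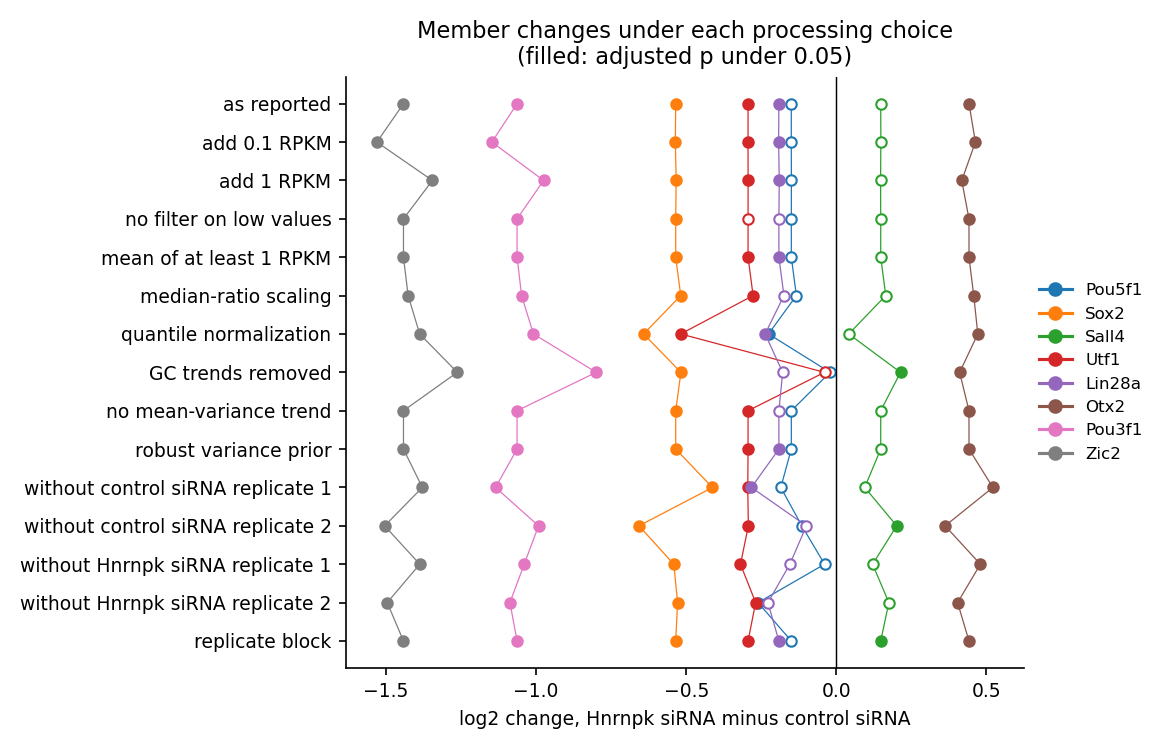
Log2 change of the 8 tested genes under each processing choice, with filled points for an adjusted p under 0.05; lines only join the points of a gene. Zic2, Pou3f1, Sox2 and Otx2 are filled throughout, and Utf1 moves from -0.52 under quantile normalization to -0.039 with GC trends removed.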

How the data were processed

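RNA-seq of 4 libraries was analysed from 1 table of RPKM values as deposited by the authors, with 1 column per library. The submitters' processing notes name BWA, SAMtools and the build mm9; the counting tool, annotation, strand setting and treatment of reads matching several places: not given in the sources used here. Per the labels, the RNA was both rRNA-depleted and poly(A)-selected. The RPKM values did not yield whole reads for nearly all genes (49.4% to 56.1% of low values of single-exon genes lay within 0.1 of a whole step), so no count model was used. Values were compared as log2(RPKM + 0.5) with limma 3.58.1 in R 4.3.3 (mean-variance trend, two-sided, Benjamini-Hochberg over the 12486 genes averaging 0.5 RPKM or more). The procedure was tested on simulated data drawn with the moderated SDs, chosen after a draw with raw SDs had recovered fewer changes; nearly all genes changed there were called, and the share of false calls in that 1 draw was above the nominal rate of the threshold. With 2 libraries a group no exact test of a single gene can give a p below 0.333, so calls rest on variance pooled across genes.

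GC content and lengths came from GENCODE M21 transcripts (GRCm38), by identifier for 20551 of 22138 genes and otherwise by symbol. Shared sequence was searched with BLAST. The genes, lists and naming rule were chosen with earlier results of these data known. Named genes are the 9 members, Hnrnpk, Nanog, tested paralogs, up to 4 called genes per direction in each other list by lowest p, and the nearest gene to each member. The values of 1 tested paralog are not reported here. Some genes, among them Nanog, Fbxo15, Mycn and Fgf4, are in several lists, so the list counts are not independent. Sox1, Map2, Tfap2c, Tcstv1 and Tcstv3 were not analysed here. The 14 alternatives covered the added value, filter, scaling, GC trends, variance model, replicate block and leaving out each library.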

Additional observations from a re-analysis of the deposited data

How the results depend on the processing

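Sox2, Otx2, Pou3f1 and Zic2 kept their direction and their call under all 14 alternatives. Without 1 library at a time, log2 changes ranged from -0.66 to -0.41 for Sox2, 0.36 to 0.52 for Otx2, -1.14 to -0.99 for Pou3f1, -1.51 to -1.38 for Zic2, -0.32 to -0.27 for Utf1, -0.28 to -0.099 for Lin28a, -0.26 to -0.039 for Pou5f1 and 0.095 to 0.20 for Sall4. Lin28a was not called without a filter (-0.19), with median-ratio scaling (-0.17), with GC trends removed (-0.18) or without a variance trend (-0.19). Utf1 was not called without a filter (-0.29) or with GC trends removed (-0.039). Pou5f1 was called under quantile normalization (-0.23) and Sall4 with GC trends removed (0.21). Genes of the 9 called higher and lower numbered 2 and 3 without a filter and 2 and 3 with GC trends removed; leaving out a library gave 1 to 2 higher and 4 to 5 lower. Over all genes tested, leaving out a library gave 6809 to 8535 calls. The sign turned for Sox3 (0.13) and Brcc3 (-0.042) with GC trends removed, and for the Zic5 to Zic2 ratio, which was not called, within -0.11 to 0.11 (log2) without 1 library. Of 723 values for 52 other named genes, 701 kept direction and call. Why values moved between these settings was not tested.

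The deviations of same-numbered libraries had a correlation of 0.027 over 12486 genes. With 2 libraries a group this cannot tell whether same-numbered libraries were prepared together. With the replicate block, 8622 genes were called against 8396 without it, and of the 9 genes 2 were called higher, since Sall4 (0.15, limma adjusted p = 0.0485) passed the threshold. What depth limits was not compared between genes.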

Other observations

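For each tested gene of the 9, the gene whose centred log2 values lay nearest over the 4 libraries was looked up, a description over 4 points that many genes can meet. Nearest to Pou5f1 was Star (distance 0.0298 on the log2 scale; log2 change -0.17), to Sox2 Cmklr1 (0.0196; -0.52), to Sall4 Brcc3 (0.0117; 0.14) and to Utf1 Rara, the retinoic acid receptor alpha gene (0.00841; -0.29). Nearest to Lin28a was Gm6871 (0.0178; -0.19), to Otx2 Psrc1 (0.0240; 0.42), to Pou3f1 Jakmip2 (0.0257; -1.05) and to Zic2 Fam69b (0.0193; -1.44). Star, not called, was -0.046 without Hnrnpk siRNA replicate 1 and -0.29 without Hnrnpk siRNA replicate 2. Gm6871 was not called without control siRNA replicate 2 (-0.11), Hnrnpk siRNA replicate 1 (-0.16) or Hnrnpk siRNA replicate 2 (-0.22), and Rara was not called with GC trends removed (-0.12). The Nodal antagonists Lefty1 and Lefty2, chosen after their values were seen, differed between the controls: Lefty1 stood at 20.9 and 10.4 RPKM after control siRNA and at 10.6 and 13.8 RPKM after Hnrnpk siRNA, and Lefty2 at 17.7 and 10.7 and then at 14.7 and 17.4 RPKM, so both overlap between groups and neither was called while Nodal rose.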
